A study of Mus musculus with 1666 samples.

Results

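Extracellular matrix genes were followed in single cells of developing mouse whisker follicles: Col1a1, Col1a2, Col3a1, Col5a1, Col5a2, Col6a1, Col6a2, Col6a3, Dcn and Lum. They are 10 of 49662 genes in the expression table, and they were chosen because earlier results from the same cells showed them in mesenchymal cells and, at a low level, in epithelial cells. Each was measured in 2 sets of cells. Fibroblast-like cells had the mesenchymal transcription factor gene Prrx1 at 10 TPM or more, a level scaled to gene length and library size, and the epidermal factor gene Trp63 under 10 TPM, and numbered 411. Epithelial cells had the basal keratin gene Krt5 and Trp63 at 10 TPM or more, and numbered 1039. Of the epithelial cells, 765 had Pdgfra, a growth factor receptor gene of dermal fibroblasts, under 1 TPM, and they were examined again on their own. The other 164 of the 1614 cells fell in neither set.

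The study traced where hair follicle stem cells come from, using mice that carry nuclear Kikume Green-Red, a transgenic fluorescent protein that light turns from green to red. From E12.0 on, whole whisker follicles were switched one by one, and cells positive for ITGA6 and the red protein and negative for CD31 were sorted. The E11.5 cells had the same ITGA6 and CD31 gate and no switching. Total RNA of each cell was read by RamDA-seq, a full-length method. One transgenic line and no treatment are named for all stages, so by these labels the groups differ in embryonic day. E11.5 also differs in having no switching. The format of the sample description goes partly with stage. It gives a lane on all plates of E13.5 and E14.0 and on no plate of E11.5 or E17.0. A change with day cannot be fully told apart from either. The gate selects basal epidermis by a surface integrin, and the Prrx1 cells are what it delivered besides, so their number is not the number of fibroblasts in the skin.

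The 7 stages were E11.5 and E12.0, then E13.0 and E13.5, and last E14.0 with E15.0 and E17.0. In order of stage there were 94, 276, 267, 181, 177, 350 and 269 cells on 18 plates. In the same order fibroblast-like cells numbered 16, 0, 211, 2, 16, 117 and 49, and epithelial cells 54, 268, 53, 160, 144, 179 and 181. No embryo or litter is named, so each stage is 1 sample and p-values measure only the spread of stages around a line in time. Sequencing depth is unknown because TPM does not keep it, and genes detected at 1 TPM, as a median per cell, lay between 16601 and 19468.5 by stage, highest at E12.0. Of the cells, 0 have a column identical to that of another cell. In the titles, 4 library codes are used under more than 1 stage, which covers 8 plates. These are all plates of E15.0 and E17.0, and plate 1 of E13.0. Whether those plates were handled together was not tested.

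Collagens are built from triplets of chains. The products of Col1a1 and Col1a2 form type I collagen, that of Col3a1 forms type III, and those of Col5a1 and Col5a2 form type V, which sits in the fibrils of type I and regulates their width. Col6a1, Col6a2 and Col6a3 encode the chains of type VI, which makes beaded filaments around cells, and Dcn and Lum encode decorin and lumican, small leucine-rich proteoglycans that bind collagen fibrils. In skin these genes are best known as products of dermal fibroblasts, while keratinocytes are known for the collagens of the basement membrane.

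Prrx1 and Krt5 helped to choose the cells, so their levels follow from the rule. Prrx1 stage means lay between 162 and 235 TPM in fibroblast-like cells and between 0.238 and 0.394 TPM in epithelial cells. Krt5 lay between 0.0364 and 0.673 TPM in fibroblast-like cells and between 154 and 884 TPM in epithelial cells. The summed level of 8 fibroblast markers was 786 to 1197 TPM by stage in fibroblast-like cells and 15.9 to 44.1 TPM in epithelial cells. Of the epithelial sum, Thy1 gave 12.2 to 34.9 TPM, Cdh11 0.516 to 8.02 TPM and Pdgfra 0.769 to 1.74 TPM, while Twist1, Twist2, Pdgfrb and Tbx15 each stayed under 1 TPM. Cdh11 reached 10 TPM in 11.3% of epithelial cells. The summed level of 8 epithelial markers was 11.9 to 93.3 TPM in fibroblast-like cells and 811 to 2680.1 TPM in epithelial cells. Itga6, which encodes the sorted integrin, overlapped between the sets, at 10.5 to 90.1 TPM by stage in fibroblast-like cells and 45.4 to 157.4 TPM in epithelial cells. Prrx1 reached 10 TPM in 1 and Pdgfra in 9 of 1039 epithelial cells.

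The members divided into those found in nearly every fibroblast-like cell and those found in some. Col1a1, Col1a2, Col3a1, both type V genes and all 3 type VI genes were at 10 TPM or more in 97.1% to 100% of the 411 fibroblast-like cells. Dcn reached that level in 29.4% of them and Lum in 28.9%. By that count 394 fibroblast-like cells, or 95.9%, had 8 or more of the 10 members. Of the epithelial cells, 0 had 8 or more, 1003 had 1 to 4 and 28 had none. The medians were 8 members per fibroblast-like cell and 2 per epithelial cell. The thresholds cut through few cells: 15 fibroblast-like cells with Prrx1 between 10 and 20 TPM had a median of 1119 TPM of Col1a1, beside 1011 TPM in 9 cells with Prrx1 between 5 and 10 TPM and Trp63 under 10 TPM. On the epithelial side, median Col5a1 was 20.3 TPM in 11 epithelial cells with Trp63 between 10 and 20 TPM. It was 23.7 TPM in 4 cells with Krt5 at 10 TPM or more and Trp63 between 5 and 10 TPM. Median Col5a2 was low in both groups, 0.462 TPM in the 11 cells and 0.976 TPM in the 4. The single epithelial cell with 7 members had 7.001 TPM of Prrx1 and 7.60 TPM of Pdgfra.

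**Figure D1:**
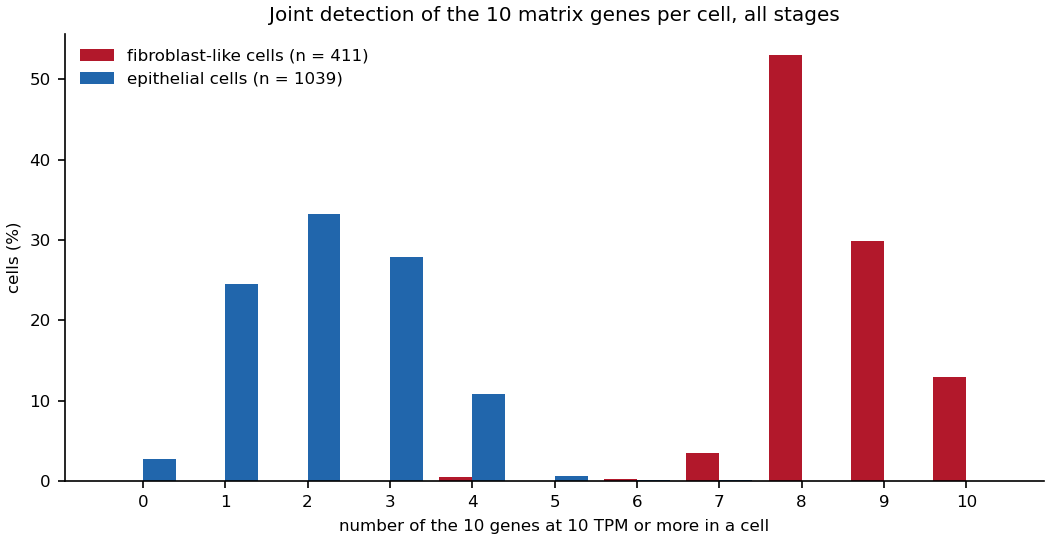
Share of cells (y axis, percent) by the number of the 10 members at 10 TPM or more (x axis), for the 411 fibroblast-like cells and the 1039 epithelial cells. Most fibroblast-like cells carry 8 or more members, and most epithelial cells carry 1 to 4.

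Pooled over all stages, the members formed 3 kinds in epithelial cells. Col5a1 and Col5a2 were broad, at 10 TPM or more in 89.8% and 56.8% of the 1039 cells. Col1a2, Dcn and Col1a1 were held by subsets, 28.01%, 26.3% and 15.9%. Col3a1 at 4.62%, and Col6a1, Col6a2, Col6a3 and Lum at 0.0962% to 0.577%, were nearly absent. By stage the broad and subset kinds overlapped, with Col5a2 in 42.4% of cells at E14.0 and Col1a2 in 52.5% at E17.0. Promoters of one gene of each kind that the reference holds are shown to let their base composition be compared. They are the 250 bases before the annotated start of the RefSeq record, plus strand, GRCm38.p6, 5′ to 3′: chr6:4505368-4505617 for Col1a2, chr2:27886175-27886424 for Col5a1 and chr1:45311288-45311537 for Col3a1. Capitals mark matches on either strand to the CCAAT box (letters CCAAT), the TATA box (letters TATAAA) and the GC box (letters GGGCGG).
Col1a2: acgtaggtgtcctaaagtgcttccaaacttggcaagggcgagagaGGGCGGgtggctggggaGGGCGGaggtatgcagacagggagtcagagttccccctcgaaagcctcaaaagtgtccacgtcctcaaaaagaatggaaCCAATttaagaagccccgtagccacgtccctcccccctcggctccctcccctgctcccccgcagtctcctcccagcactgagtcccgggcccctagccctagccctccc
Col5a1: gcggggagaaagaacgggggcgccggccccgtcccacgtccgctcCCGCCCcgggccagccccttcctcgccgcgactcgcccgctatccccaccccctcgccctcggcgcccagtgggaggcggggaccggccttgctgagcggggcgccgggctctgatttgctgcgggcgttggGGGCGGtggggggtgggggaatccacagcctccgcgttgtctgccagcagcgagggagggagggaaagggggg
Col3a1: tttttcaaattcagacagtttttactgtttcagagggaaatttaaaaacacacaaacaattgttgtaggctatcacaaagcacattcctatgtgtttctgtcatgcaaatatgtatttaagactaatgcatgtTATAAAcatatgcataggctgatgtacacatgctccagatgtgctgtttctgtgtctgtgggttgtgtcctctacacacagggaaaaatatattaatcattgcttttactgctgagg

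The Col1a2 window held 1 CCAAT box and 2 GC box matches and was 62% G or C. The Col5a1 window held 2 GC box matches and was 76.4% G or C. The Col3a1 window held 1 TATA box match and was 35.2% G or C, against a median of 52.4% over 32851 such windows. Among those windows 33.8% held a CCAAT box, 12.4% a TATA box and 32.7% a GC box on either strand, and the motifs share no letters in these 3 windows. A match is only a run of letters. The other windows of nearly absent members were 57.2% G or C for Col6a3, 56% for Col6a1, and 64.4% and 59.2% for Col6a2. The Col6a2 windows held 3 GC box matches and 1. The Col3a1 window is thus not typical of its kind, and no link between base composition and kind is read from the windows. Windows of 6 members were found; Col1a1, Col5a2, Dcn and Lum are named only.

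By position, Col3a1 and Col5a2 are neighbours on chromosome 1, 24614 bases apart on opposite strands, with 0 protein-coding genes between them. In epithelial cells these neighbours differed widely, Col5a2 being broad and Col3a1 nearly absent. Dcn and Lum lie 46984 bases apart on chromosome 10, and here too the epithelial values differed, with Dcn in 26.3% and Lum in 0.0962% of cells. Col6a2 and Col6a1 lie 85161 bases apart on the same chromosome and were both nearly absent. In the GENCODE M21 annotation of GRCm38 Col1a1 spans chr11:94936224-94953042 and Col1a2 chr6:4504814-4541544, so the RefSeq window of Col1a2 lies inside the longer GENCODE gene. Dcn spans chr10:97479609-97518143.

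The genes of type I collagen were the members called with day in epithelial cells. The stage means of Col1a2 were 2.47, 2.73, 7.81, 24.8, 35.1, 63.9 and 76.9 TPM from E11.5 to E17.0. Those of Col1a1 were 0.285, 2.62, 2.27, 3.96, 2.58, 9.57 and 25.1 TPM. Every later stage of Col1a2 was above the one before, while Col1a1 stayed under 4 TPM up to E14.0 and was highest at E17.0. The share of epithelial cells at 10 TPM or more went the same way for Col1a2, with 1.85%, 6.72%, 20.8%, 25.6%, 36.1%, 40.8% and 52.5%. For Col1a1 it was 0% of 54 cells at E11.5, which allows up to 5.56%, then 8.21%, 9.43%, 18.1%, 9.03%, 17.9% and 35.4%. Exact 95% binomial intervals, which cover the counting of cells only, were 44.9% to 59.9% for Col1a2 and 28.4% to 42.8% for Col1a1 at E17.0.

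Plates of 1 stage showed how even these means were. At E17.0 the plate means were 34.3, 15.8 and 25.2 TPM for Col1a1 and 82.5, 75.6 and 72.5 TPM for Col1a2, all above every plate of E11.5 to E14.0. The Col1a2 plate means of E15.0, at 45.3, 66.9, 77.1 and 66.2 TPM, overlapped those of E17.0. At E15.0 Col1a1 was 21.996 TPM on plate 1, which held 10 epithelial cells, and 4.07, 5.48 and 6.75 TPM on the other plates. Without plate 1 the E15.0 mean was 5.43 TPM.

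**Figure D2:**
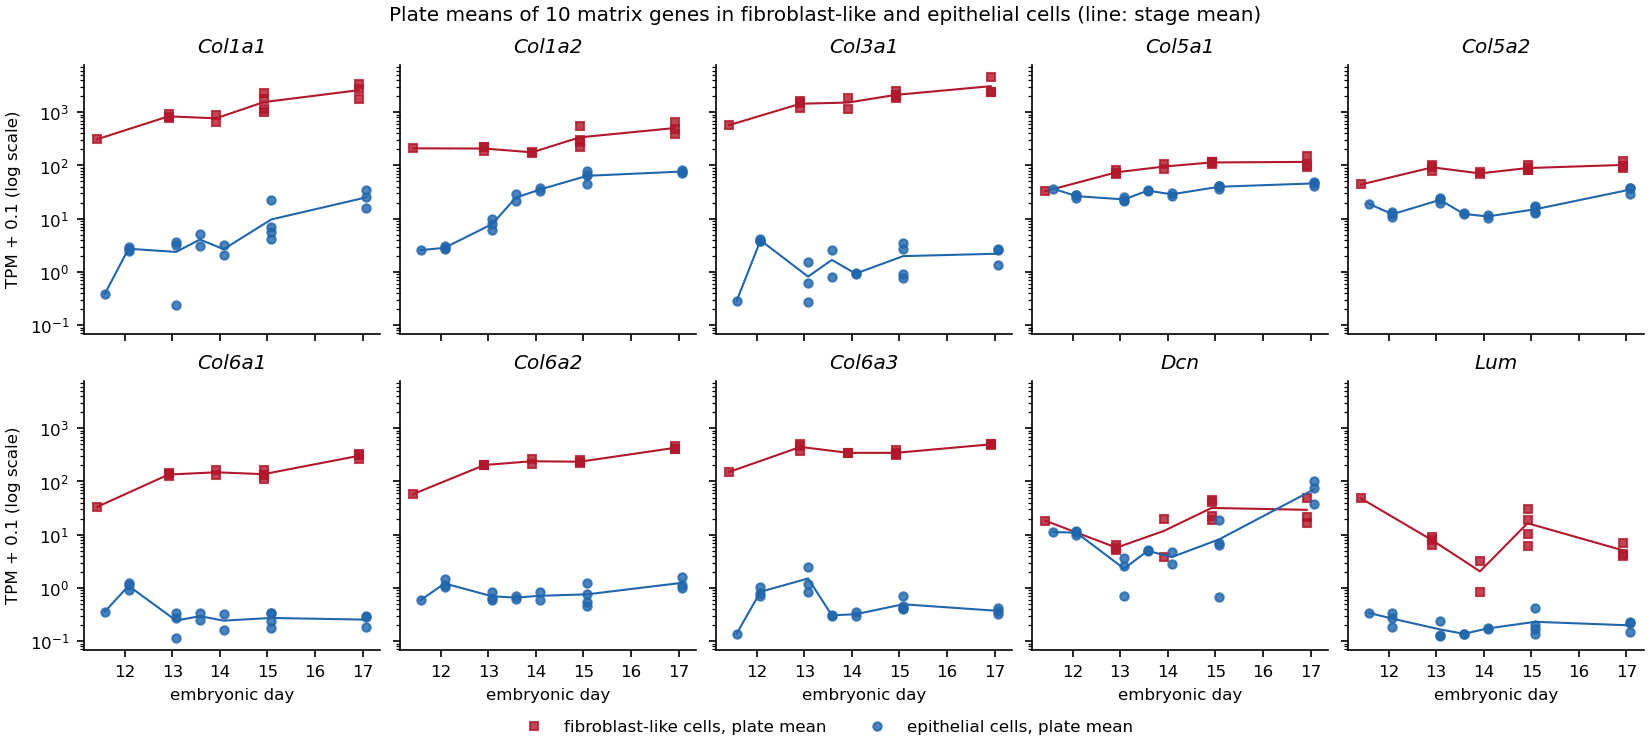
Plate means (points) and stage means (lines) of each member, as TPM + 0.1 on a log axis, by embryonic day, fibroblast-like cells in red squares left of epithelial cells in blue circles. In epithelial cells Col1a2 climbs from E12.0 on, Col5a1 stays near 20 to 50 TPM, and Col3a1, type VI genes and Lum lie near 0.

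As slopes of log2(stage mean TPM + 1), the epithelial values were 0.93 ± 0.14 per day for Col1a2 and 0.70 ± 0.09 for Col1a1 (± SE, limma over 7 stages). The other members that passed the filter of 1 TPM had slopes of 0.44 ± 0.24 for Dcn, 0.15 ± 0.10 for Col5a2, 0.11 ± 0.06 for Col5a1 and 0.11 ± 0.13 for Col3a1. Of these 6 members, 2 were called rising, against 1.23% of 23668 genes called rising and 1.88% in either direction. Since the members were chosen with this trend known, nothing is read from that count. The slopes of Col6a1, Col6a2, Col6a3 and Lum were not fitted, because their mean over stages was under 1 TPM. Without the filter 0 members were called, beside 37 of 48883 genes. Without E11.5 or without E15.0 neither gene was called, without E17.0 Col1a1 was not, and without E12.0 or without E13.0 Col1a2 was not. On the plates whose description gives a lane, which end at E15.0, 0 members were called, beside 0 of 24198 genes, so nothing is read about the members.

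Cells with Pdgfra under 1 TPM gave nearly the same levels. At E17.0 they had 28.2 TPM of Col1a1, 80.96 TPM of Col1a2 and 65.8 TPM of Dcn. The slopes there were 0.90 ± 0.13 for Col1a2 and 0.71 ± 0.10 for Col1a1, with 2 of 6 members called, beside 1.05% of 23624 genes rising, 0.55% falling and 1.6% in either direction. With Prrx1 under 1 TPM as well they were 0.88 and 0.65.

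**Figure D3:**
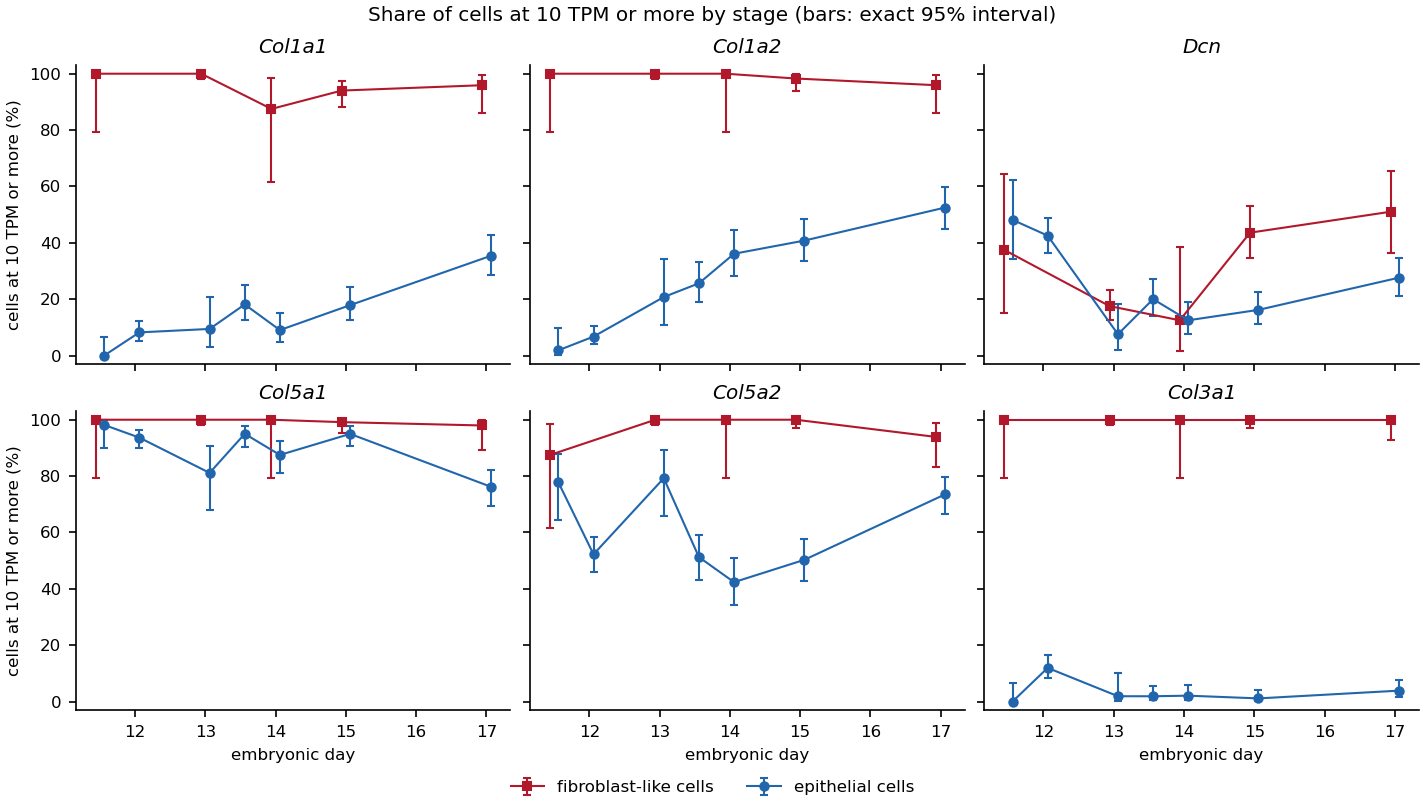
Share of cells at 10 TPM or more (y axis, percent) by embryonic day for 6 members, with exact 95% intervals, in fibroblast-like cells (red squares) and epithelial cells (blue circles). In epithelial cells the Col1a2 share is 52.5% and the Col1a1 share 35.4% at E17.0.

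Type V collagen was present in epithelial cells from the start. Col5a1 stage means were 36.8, 26.4, 22.9, 33.6, 28.6, 39.7 and 45.95 TPM, and Col5a2 means were 19.05, 12.02, 22.5, 12.2, 10.9, 14.9 and 35.2 TPM. The Col5a1 share was lowest at E17.0, 76.2%, though the mean was highest there. At E11.5 Col5a1 was no higher in fibroblast-like cells, 32.7 TPM against 36.8 TPM in epithelial cells, a fold of 0.888, each on 1 plate. At later stages the fold, fibroblast-like over epithelial, was 2.54 to 3.33. Col5a1 overlaps the opposite-strand genes 2810430I11Rik and Gm13372, and whether counting used strand is not given in the sources used here. These averaged 1.74 and 6.82 TPM in fibroblast-like cells and 1.47 and 2.13 TPM in epithelial cells. On the same strand Col1a2 overlaps Gm43921, Col5a2 overlaps Gm38211 and Col6a3 overlaps Gm36970, which averaged 10.9, 7.41 and 3.48 TPM in fibroblast-like cells and 1.38, 1.82 and 0.475 TPM in epithelial cells. How reads were divided between these pairs was not tested, and the values of all 4 members are uncertain to that extent.

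Dcn had a different course. Epithelial stage means were 11.1, 10.8, 2.21, 4.89, 3.69, 8.09 and 71.5 TPM, and the shares at 10 TPM or more were 48.1%, 42.5%, 7.55%, 20%, 12.5%, 16.2% and 27.6%. So many cells held a little Dcn at E11.5 and E12.0, and fewer held much more at E17.0. At E17.0 the median was 0.523 TPM, the highest cell had 990 TPM and 17.7% of cells were at 100 TPM or more, while at E11.5 and E12.0 none of 54 and 268 was. The 5% of cells with most Dcn held 48.7% of it at E17.0, against 17.7% at E11.5. Dcn was the single member whose mean at E17.0 was lower in fibroblast-like than in epithelial cells, while its share and median were higher. On plates 1, 2 and 3, which held cells of both kinds, the means were 16.3, 49.7 and 21.8 TPM in fibroblast-like cells, against 102, 74.8 and 37.4 TPM in epithelial cells. The mean was thus lower in fibroblast-like cells within each of the 3 plates, though the ranges over plates overlap. The shares at 10 TPM or more on the same plates were 50%, 47.4% and 57.1% in fibroblast-like cells, against 31.03%, 32.2% and 20.3% in epithelial cells. The medians were 7.14, 2.89 and 12.5 TPM in fibroblast-like cells, against 0.545, 0.640 and 0.432 TPM in epithelial cells.

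Col3a1 was nearly absent in epithelial cells. Its stage means were 0.186, 3.83, 0.717, 1.58, 0.8289, 1.88 and 2.10 TPM, highest at E12.0, where 11.9% of cells were at 10 TPM or more. E12.0 also had the most genes detected per cell, and the part of this in the value was not tested. Col6a1, Col6a2 and Lum stayed at or under 1.15 TPM and Col6a3 at or under 1.40 TPM at every stage.

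The 2 sets of cells differed in the make-up of the collagens. At E17.0 the ratio of Col1a1 to Col1a2 was 5.14 in fibroblast-like cells and 0.326 in epithelial cells. The ratio of Col3a1 to Col1a2 was 6.12 in fibroblast-like cells and 0.0273 in epithelial cells. By stage the Col1a1 ratio ran from 1.48 to 5.14 in fibroblast-like cells and from 0.0734 to 0.961 in epithelial cells. The Col3a1 ratio ran from 2.73 to 8.62 and from 0.0236 to 1.40. Both epithelial ratios were highest at E12.0, which had no fibroblast-like cells. Ratios were also taken within E17.0 cells at 10 TPM or more of Col1a2, a choice that can lower them. The median Col1a1 to Col1a2 ratio was 4.84 over 47 fibroblast-like cells and 0.218 over 95 epithelial cells. Col3a1 exceeded Col1a2 in 47 of 47 fibroblast-like cells and in 0 of 95 epithelial cells. These values chose the members in part and are given with no test.

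**Figure D4:**
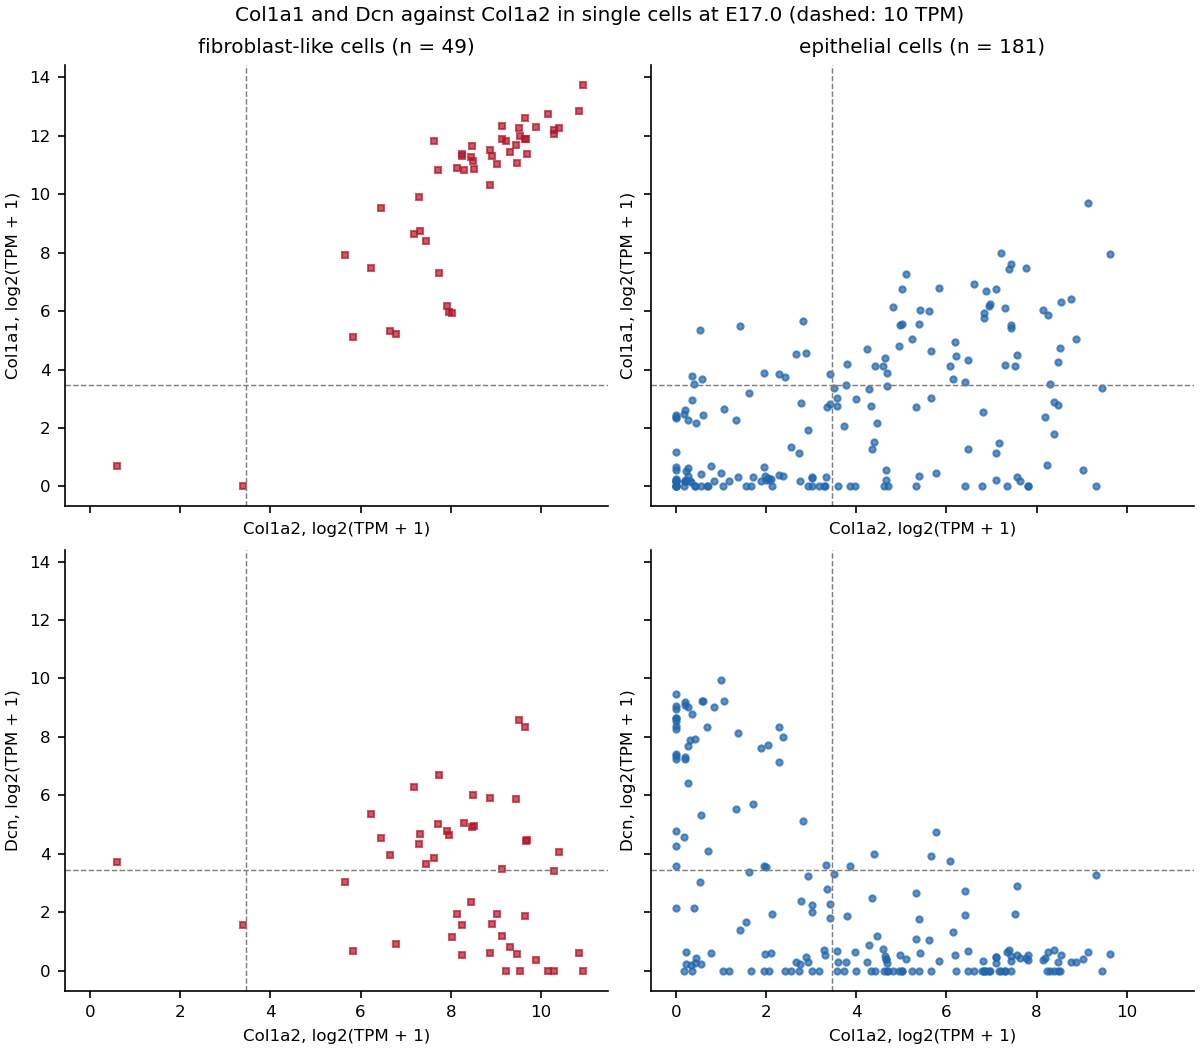
Col1a1 (top row) and Dcn (bottom row) against Col1a2 (x axes) in single cells at E17.0, all as log2(TPM + 1), 49 fibroblast-like cells on the left and 181 epithelial cells on the right, with dashed lines at 10 TPM. Of the epithelial cells 5 lie past both lines for Dcn and Col1a2, and 52 do for Col1a1 and Col1a2.

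Within epithelial cells at E17.0, Col1a2 and Dcn were held by mostly separate cells. Of 181 cells, 95 had Col1a2 and 50 had Dcn at 10 TPM or more, and 5 had both, 1, 2 and 2 on the 3 plates. Of 64 cells with Col1a1, 52 had Col1a2 and 5 had Dcn. Col5a1 reached 10 TPM in 92 of the 95 Col1a2 cells and in 17 of the 50 Dcn cells. Col5a2 did so in 91 of the Col1a2 cells and in 21 of the Dcn cells. Of the Col1a2 cells, 0 had Prrx1, Twist1, Twist2, Col6a3 or Lum at 10 TPM or more, and 2 had Pdgfra. Of all 181 epithelial cells 0 had any of those 5 genes, and 3 had Pdgfra. The other fibroblast markers, Thy1, Cdh11, Pdgfrb and Tbx15, were not counted in the Col1a2 cells. Over all stages they reached 10 TPM in 57.6%, 11.3%, 0% and 0.770% of epithelial cells. Dcn was thus found in 5.26% of Col1a2 cells at E17.0, against 27.6% of all epithelial cells. The count differed by stage. Of the Col1a2 cells, 4 of 18 had Dcn at E12.0, 1 of 11 at E13.0, 2 of 41 at E13.5, 0 of 52 at E14.0 and 2 of 73 at E15.0. The shares of all epithelial cells with Dcn at these stages were 42.5%, 7.55%, 20%, 12.5% and 16.2%. At E13.0 the 9.09% of Col1a2 cells with Dcn was not below the share of all cells. These counts carry no test.

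**Figure D5:**
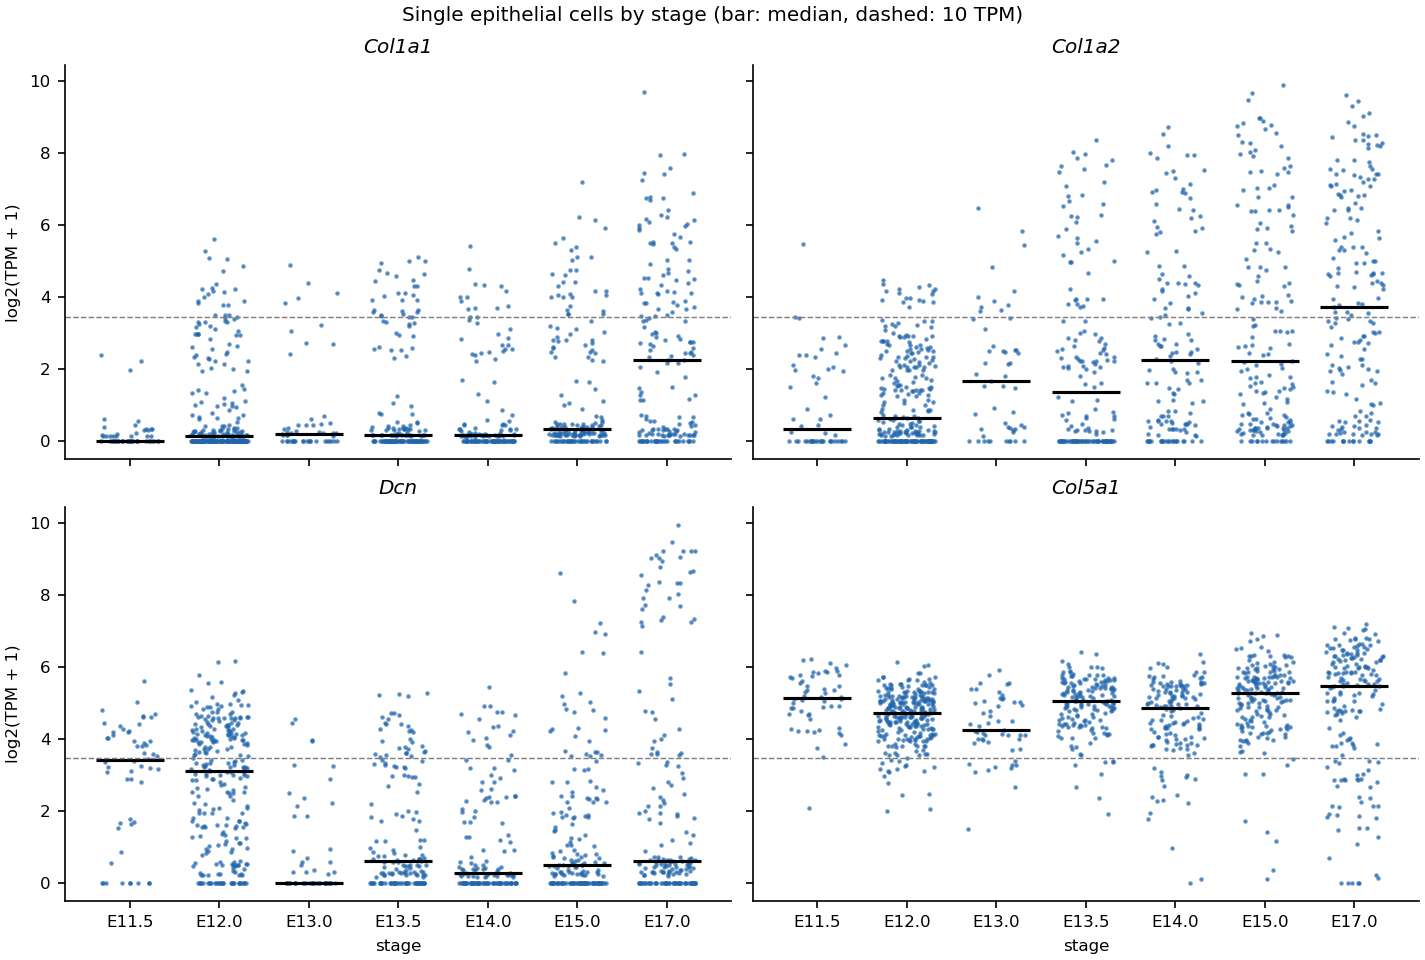
Col1a1, Col1a2, Dcn and Col5a1 in single epithelial cells (points, log2(TPM + 1)) by stage, with the median as a bar and 10 TPM as a dashed line. Col1a2 is at 10 TPM or more in 52.5% of cells at E17.0, and Dcn reaches 990 TPM there.

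Across the 181 epithelial cells of E17.0, Spearman's rho of Col1a2 was -0.53 with Dcn and 0.74 with Col5a1. These cells share plates, and rho is a description. The genes most like Col1a2 among 9697 genes were Meis2 at 0.82, Lifr and Tbx1 at 0.80, Vwa2 at 0.79 and Mfap2 at 0.77. The genes most like Dcn were Mt4 at 0.70, Wnt10b at 0.65, Mbd2 and Tnfrsf19 at 0.62 and Axin2 at 0.61, and Sox9, a factor gene of hair follicle progenitors, was at -0.65. These genes were chosen after their values were seen. At E12.0 Dcn went with Boc at 0.71 and against Runx1 at -0.72 over 268 cells. Over 18 plates of epithelial cells the genes most like Col1a1 were Bgn, Adarb1, Col16a1, Rassf6 and Cbs. Their Pearson r was 0.92, 0.91, 0.90, 0.88 and 0.88. The plates span 7 stages, so a gene that rises with day can score high, and r is a description.

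In fibroblast-like cells the fibrillar collagens were highest at E17.0. Over the 5 stages with 10 or more such cells the stage means were 311, 838, 769.5, 1551 and 2600.2 TPM for Col1a1, and 573, 1448, 1522, 2119 and 3092 TPM for Col3a1. Col1a2 means were 209.9, 208, 177, 337 and 506 TPM. The plate means at E17.0 ranged from 1762 to 3329.7 TPM for Col1a1, and those of E15.0, 1031 to 2258 TPM, overlapped them. Type VI means at E11.5 and E17.0 were 33.3 and 304 TPM for Col6a1, 57.8 and 429 TPM for Col6a2 and 151 and 499 TPM for Col6a3. Dcn, at 18.3, 5.61, 11.7, 31.8 and 29.2 TPM, and Lum, at 48.01, 7.74, 1.95, 16.3 and 5.001 TPM, had no such order.

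Slopes in fibroblast-like cells were 0.54 ± 0.07 for Col1a1 with adjusted p = 0.0634 and 0.41 ± 0.06 for Col3a1 with adjusted p = 0.0765 (limma, 5 stages, Benjamini-Hochberg). Of 10 members 0 passed, against 0.0541% of 24041 genes, and 8 of 10 had an unadjusted p under 0.05, as had 4263 of all genes. Slopes of the others were between 0.18 and 0.50, with adjusted p of 0.115 to 0.463, and Lum was at -0.41 ± 0.26 with adjusted p = 0.456. With the filter at 10 TPM Col1a1 passed at adjusted p = 0.0289 and Col3a1 at 0.0405. Summed pericyte and smooth muscle markers in these cells were 6.39, 10.3, 52.3, 107 and 59.3 TPM over the 5 stages, highest at E15.0. Cartilage and bone markers summed to 142, 70.5, 126, 121 and 219.9 TPM, highest at E17.0. Markers of the dermal condensate and papilla summed to 175, 166, 350, 260 and 249 TPM, highest at E14.0. The part of these 3 lists in the slopes was not tested.

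Whether the slope differed between the 2 sets was tested by the trend of the difference, fibroblast-like minus epithelial, over the 5 stages with both. It was -0.62 ± 0.20 log2 per day for Col1a2 with adjusted p = 0.295 and -0.26 ± 0.06 for Col1a1 with adjusted p = 0.209. Of 10 members 0 passed, beside 0% of 24159 genes, and 6 had an unadjusted p under 0.05, as had 3275 genes. A p that misses the threshold does not show that the slopes were alike.

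Other matrix genes were read from lists set with earlier results known, and their counts stand beside the 1.23% of all genes called rising and 0.646% falling in epithelial cells. Of 25 enzymes and chaperones, 21 were tested in epithelial cells and 0 passed in either direction, with a median slope of -0.02 against -0.0062 over all genes. The highest by mean were Serpinh1, the collagen chaperone, and P4hb, a subunit of prolyl hydroxylase. Stage means of Serpinh1 lay between 80.3 and 175 TPM, with 175 on E11.5 and 82.5 on E17.0. Those of P4hb lay between 67.4 and 115 TPM, with 115 on E11.5 and 68.3 on E17.0. Their slopes were -0.19 ± 0.05 and -0.15 ± 0.04 per day. Of 5 other small leucine-rich proteoglycans 1 rose, Bgn, at 0.25 ± 0.05 per day, with 23.3 TPM on E11.5 and 61.2 on E17.0. In cells with Pdgfra under 1 TPM Bgn did not pass, with a slope of 0.25 ± 0.05 and adjusted p = 0.0666 (limma). Of 8 other fibrillar or fibril-associated collagens 1 rose, Col16a1, at 0.89 ± 0.09, with 1.64 TPM on E11.5 and 69.3 on E17.0. Of 6 collagen receptors 1 rose, Itga1, the alpha chain of a collagen-binding integrin, at 0.93 ± 0.11. Of 14 other interstitial matrix genes and 7 basement membrane collagens 0 passed.

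In fibroblast-like cells, 1 of 25 enzymes passed, Loxl1, a lysyl oxidase that crosslinks matrix, at 0.72 per day with adjusted p = 0.0482 (limma), beside 0.0541% of all genes. Markers of other cells that passed in epithelial cells were Cdh11, Cspg4 and Mitf, at 8.02, 25.8 and 11.51 TPM at E17.0, and their part in the members' trend was not tested.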

How the data were processed

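Values were TPM per gene and cell, deposited by the authors in 1 table after removal of low-quality cells; 52 of 1666 labelled cells have no column. Reads had been handled with Subread 1.5.0 (featureCounts), HISAT2 2.0.4 and bcl2fastq 1.0 on mm10, per the submitters' processing notes; the counting strand is not given in the sources used here. The members and gene lists were chosen with earlier results of these data known. Named genes were the members, up to 3 list genes past the test (otherwise the 2 with the highest mean) and the 5 most like Col1a1; genes ranked by per-cell likeness to Col1a2 and Dcn were named outside that rule, after their values were seen. Plates of 5 or more cells were averaged, then plates within a stage of 10 or more cells, as log2(mean TPM + 1), for genes with a mean of 1 TPM or more. The slope on embryonic day was tested with limma 3.58.1 (R 4.3.3), two-sided with a mean-variance trend, adjusted by Benjamini-Hochberg at 0.05. The fit was run on simulated data with independent noise and no shared stage or plate effects, so that check does not cover such effects. For the difference fit the variance trend ran on the mean level of both classes. A variance trend on the mean difference gave unstable errors; the choice was made after seeing them. Intervals are exact (Clopper-Pearson) and cover counting of cells only. No doublet caller was run. Alternatives were other pseudocounts, filters, scalings, class thresholds and left-out stages and plates. Chosen after seeing the data were cells with Xist under 1 TPM, plates whose description gives a lane, and that other variance trend.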

Additional observations from a re-analysis of the deposited data

Results flagged for a closer look

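Plate means within E15.0, the stage with 4 plates, were compared for a plate that stood apart. Of 20 such groups, 3 were picked out, all at plate 1, and chance picks about 1 in 20. The groups share the same 4 plates and are not independent. In fibroblast-like cells Col6a2 was 256 TPM on plate 1, above 230, 226 and 228 TPM on plates 2, 3 and 4. In epithelial cells plate 1, with 10 cells, had 21.996 TPM of Col1a1, above 4.07, 5.48 and 6.75 TPM. Its Col5a1 mean was 36.3 TPM, below 41.04, 40.8 and 40.8 TPM.

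The 164 cells in neither class were not part of the comparisons. At 10 TPM or more, 19.5% of them had Col1a1, 32.9% Col1a2, 39.6% Col3a1, 48.8% Col5a1 and 67.1% Col5a2. Type VI genes were at that level in 26.2% for Col6a1, 26.2% for Col6a2 and 25.6% for Col6a3. Dcn was so in 14.02% and Lum in 6.10%. Of these cells 29 had 8 or more members and 40 had none.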

How the results depend on the processing

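The count of genes called moved far with the settings, and slopes of Col1a1 and Col1a2 in epithelial cells kept their sign in every alternative run. Against 445 calls in epithelial cells there were 37 with no filter (0 members), 691 from means of log2 values, 1425 on the rank of the stage and 0 (0 members) on plates whose description gives a lane, an alternative chosen after seeing the data; a filter at 10 TPM left 1 member called. Leaving out 1 stage gave 37 to 417 calls and 0 to 2 members, and leaving out 1 plate 417 to 516 calls. Against 378 calls in Pdgfra-negative cells there were 3 with no filter (0 members), 591 from means of log2 values and 1347 on rank; the 10 TPM filter left 1 member, stages gave 9 to 435 calls and 0 to 2 members, and plates 333 to 449. Against 13 calls in fibroblast-like cells there were 7 and 33 with pseudocounts of 0.1 and 5 TPM, 144 (2 members) with the 10 TPM filter, 0 with none, 185 from means of log2 values, 4 without the highest 5% of cells, 7 rescaled to protein-coding genes, 2 by median-of-ratios, 55 on rank and 20 with stricter cells; stages gave 0 to 5 and plates 4 to 23. The difference fit gave 10 calls with the 10 TPM filter and 2 with Krt5 at 100 TPM or more, against 0. The causes were not tested.

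Slopes of all members together, over left-out stages and plates, ran from -0.23 to 1.34 in epithelial, -0.28 to 1.22 in Pdgfra-negative and -0.60 to 0.60 in fibroblast-like cells, and from -1.12 to 0.61 for the difference. Slopes changed sign as follows. In epithelial cells Dcn was -0.10 from means of log2 values, Col3a1 -0.019 without E11.5, and Col5a2 -0.09 and Dcn -0.23 without E17.0. On lane plates Col3a1 was -0.30, Col5a2 -0.11 and Dcn -0.33. In Pdgfra-negative cells Dcn was -0.14 from means of log2 values, Col3a1 -0.0097 without E11.5, and Col5a2 -0.14 and Dcn -0.28 without E17.0. In fibroblast-like cells Lum was 0.023 without E11.5. For the difference, Col3a1 was -0.12 with a pseudocount of 0.1 TPM and Col1a1 0.068 with 5 TPM, Dcn 0.16 from means of log2 values and 0.34 without E17.0, and without E11.5 Col5a1 was -0.09, Col5a2 -0.16 and Lum 0.011. Rescaling to protein-coding genes shifted the median of all genes by 1.18 to 1.27 (log2) in epithelial cells, and no member's slope changed sign under it. No paired analysis was possible because the replicate numbers count single cells within a stage and tie no cell to one of another stage; the 2 classes share plates, and the difference fit sets them against each other within each stage.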
